A study of Homo sapiens with 24 samples.

Results

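The comparison described here is that of untreated ID3-KO with untreated WT U2OS cells, a human osteosarcoma line. Its members are the 6 libraries whose titles carry U2OS, untreated and either genotype, 3 per genotype, out of 24 RNA-seq libraries in the series. The series set WT against ID3-KO cells with and without mocetinostat, an inhibitor of class I histone deacetylases, in U2OS cells and in AID-DIvA cells, which are U2OS cells with an integrated vector for an inducible restriction enzyme. Both groups compared here were grown without drug, so they differ in genotype alone, as far as the labels say. Their titles read UT, for untreated, while supplementary figures of the paper name the controls of its mocetinostat comparisons as DMSO. The labels give the genotypes as wt and ID3-knockout. How the knockout was made, and whether it is 1 clone, is not given in the sources used here, so the genotype and the particular KO line cannot be told apart. The library names of these 6 libraries also carry the letters DivA, while their cell line label reads U2OS.

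ID3 is a helix-loop-helix protein that lacks a DNA-binding basic region. It pairs with E proteins, such as those encoded by TCF3, TCF4 and TCF12, and so keeps them from binding E-box sequences in DNA. The ID genes are well-known targets of bone morphogenetic protein signalling, and in mesenchymal cells they are associated with proliferation and with the restraint of differentiation.

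Total counts ran from 51122228 to 70692114 per library over the 6 libraries. WT replicate 1 stood apart from the other libraries. Between WT replicate 1 and WT replicates 2 and 3, the chi-square statistic per gene was 107 and 93.2, against 2.98 to 5.51 for the other pairs within a genotype. In WT replicate 1, genes with an exonic length of 1 to 2 kilobases were a median 0.29 higher on the log2 scale than in WT replicates 2 and 3, and genes of more than 8 kilobases were 0.33 lower (median log2 difference -0.33). Over 15346 genes with a mean of at least 1 CPM (counts scaled to library size, with TMM factors for composition), the median SD of log2 CPM was 0.165 among the 3 WT libraries, 0.045 between WT replicates 2 and 3 alone, and 0.054 among the 3 KO libraries. Values without WT replicate 1 are given beside some results, and values printed without one can move too. Without it the log2 KO minus WT difference of KRT81 went from 2.55 to 2.83. That of MIAT went from -1.56 to -1.78 and that of TIMP1 from -1.30 to -1.10.

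**Figure D1:**
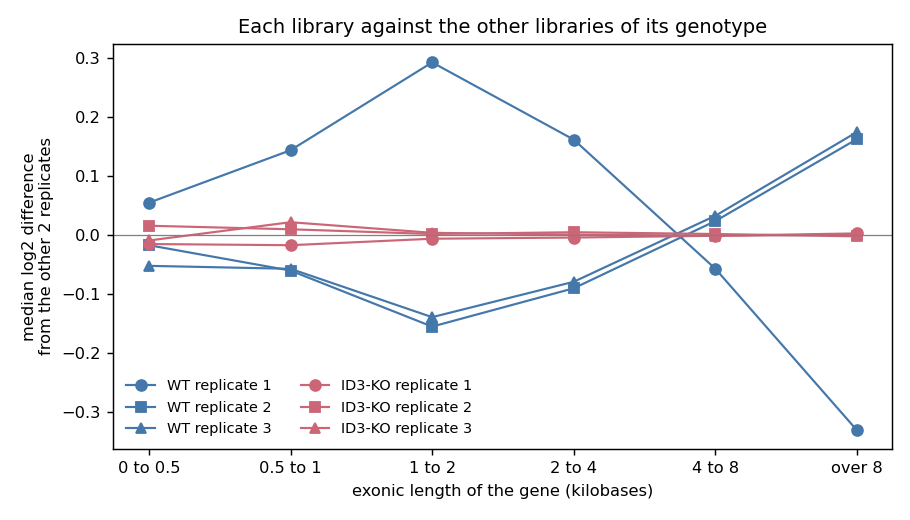
Median log2 difference of each library from the other 2 replicates of its genotype (vertical axis), by exonic length of the gene in kilobases (horizontal axis), for genes of at least 1 CPM. WT replicate 1 reaches 0.29 at 1 to 2 kilobases and -0.33 above 8 kilobases, WT replicates 2 and 3 mirror it, and the 3 ID3-KO libraries lie close to 0 at every length.

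The cells carried the RNA of a mesenchymal line. The collagen chain COL1A1 had 92204 to 168992 counts per library, SPARC, a matrix protein of bone, had 72235 to 104285, and the intermediate filament gene VIM had 24076 to 43272. RUNX2, the master regulator of the osteoblast lineage, had 1278 to 3214 counts. Not every mesenchymal marker was present, since NT5E had at most 2 counts and TWIST1 at most 1. Several defining markers of other cell types were at or near 0, with at most 21 counts per library for PTPRC of blood cells, 10 for CDH5 of endothelium, 6 for SOX10 of the neural crest, 4 for KRT19 of epithelium and 0 in every library for HBB. Others were not, among them SOX2 with 600 to 1718 counts, NES with 15894 to 22937, EPCAM with 274 to 398, the endothelial genes ERG with 330 to 534, VWF with 165 to 511 and CLDN5 with 92 to 173, and ITGAM of blood cells with 42 to 107.

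The loss of ID3 went with changes in a limited share of the transcriptome, and with more decreases than increases. Of 20621 genes tested, 292 (1.42%) were higher and 586 (2.84%) were lower in ID3-KO than in WT cells, together 878 or 4.26% (edgeR quasi-likelihood test, Benjamini-Hochberg adjusted p under 0.05 and a log2 difference beyond 1, the rule behind every gene written as called, risen or fallen here). The median log2 difference of all tested genes was -0.01. By the adjusted p alone, 1352 (6.56%) were higher and 1780 (8.63%) lower. An unadjusted p under 0.05 was found for 6059 genes (29.4%), with 13.5% of all genes higher and 15.9% lower, and the counts at that level given for gene lists below are to be read against these shares. Counts of called list members are likewise to be read against 1.42% higher and 2.84% lower. In 67 called genes the log2 difference was beyond 3, and in 217 it was beyond 2. No overlap between the WT and the KO libraries was seen for 292 of the 292 higher and 585 of the 586 lower genes, where 40.4% of all tested genes had groups that did not overlap.

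Without WT replicate 1 the test called 398 higher and 782 lower genes of 20973, or 1.9% and 3.73%. Of the genes called with all 6 libraries, 255 higher and 531 lower were among them. Leaving out KO replicate 1 instead gave 193 and 370 genes, and leaving out KO replicate 2 gave 389 lower genes. Genes called with the full set alone include CGN, a tight junction protein, with a log2 difference of 1.02 (0.95 without WT replicate 1), DLAT, a subunit of pyruvate dehydrogenase in the chromosome 11 stretch described below, with 1.02 (0.95), and LRP5, a WNT co-receptor, with 1.03 (0.97). In the other direction, ARHGAP31, a GTPase-activating protein, moved from -0.99 to -1.22, MISP, a spindle-positioning protein, from 0.87 to 1.11, and NNMT, a nicotinamide methyltransferase, from 0.94 to 1.07 when that library was left out. All 6 genes passed the adjusted p in both fits, so the fold threshold alone decided their calls.

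ID3 itself had 81.2, 54.6 and 52.4 CPM in WT replicates 1 to 3 and 32.4, 30.3 and 29.4 CPM in the KO libraries. The genotypes did not overlap, yet ID3 RNA was still counted in all KO libraries. The log2 difference was -1.03 ± 0.17 (SE, n = 3 per genotype, edgeR adjusted p = 0.0065), and -0.80 without WT replicate 1, which no longer passes the fold threshold. Since the edited position is not given, a count over the whole gene does not check the genotype labels. The paper reports a Western blot check of the knockout in its U2OS cells, which is evidence at the protein level.

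The other ID genes did not pass the fold threshold. ID2 had a log2 difference of -0.47 (edgeR adjusted p = 0.02) and ID4 of -0.64 (adjusted p = 0.012). Nor did ID1, which had 284, 187 and 183 CPM in WT and 171, 159.5 and 163 CPM in KO cells. WT replicate 1 was far above the other WT libraries, and the log2 difference was -0.41 with it (adjusted p = 0.15) and -0.17 without it.

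The E protein genes, whose products are the binding partners of ID3, were not called by edgeR, DESeq2 or limma, and 0 of the 3 had an unadjusted p under 0.05. TCF3 differed by -0.02, TCF4 by -0.06 and TCF12 by 0.18 (edgeR adjusted p = 0.92, 0.83 and 0.48), and TCF3 stood at 0.12 and TCF4 at -0.24 without WT replicate 1. WT replicate 1 lay outside the range of the other 5 libraries for each of these genes. Among 13 tested tissue-specific basic helix-loop-helix factors, only BHLHE41 was called (7.69%, against 2.84% of all tested genes called lower). This circadian repressor had 44.1, 54.1 and 53.4 CPM in WT and 14.6, 15.9 and 16.2 CPM in KO cells, a fall with a log2 difference of -1.70 ± 0.10 (edgeR adjusted p = 9.3e-05).

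Many of the largest increases came from genes with few counts in WT cells. DLX4, a distal-less homeobox transcription factor (ENSG00000108813.9, chromosome 17, 48046334 to 48052321, hg19), had 1 count over the 3 WT libraries and 1401 over the 3 KO libraries. Its ratio of KO to WT counts, scaled for library size, was 1590, with a counting interval of 285 to 62900 (exact binomial, 95%, which covers counting error only). IGFBP4, a secreted protein that binds insulin-like growth factors (ENSG00000141753.5, chromosome 17, 38599702 to 38613983), had 0.156, 0.152 and 0.0952 CPM in WT and 54.8, 53.7 and 55.1 CPM in KO libraries. The genotypes are far apart, and the log2 difference was 8.61 ± 0.13 (SE, n = 3 per genotype, edgeR adjusted p = 1.6e-07).

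HOXB2, a homeobox gene of the HOXB cluster, had 0.452, 0.333 and 0.305 CPM in WT and 22.6, 22 and 23.6 CPM in KO libraries (log2 difference 5.95 ± 0.14, edgeR adjusted p = 2.4e-06). It was the 1 called gene among 35 tested HOX genes (2.86%, against 1.42% of all tested genes called higher). The median log2 difference of that list was -0.03. The cancer-testis antigen genes CTAG2 and MAGEB1 of the X chromosome also rose. CTAG2 went from between 0.0277 and 0.156 CPM to between 6.5 and 6.81 CPM, and MAGEB1 from between 0.0935 and 0.171 CPM to between 6.27 and 7.13 CPM. Their log2 differences were 6.34 and 5.69 (edgeR adjusted p = 4.7e-05 and 8.8e-06), and CTAG2 stood at 7.29 without WT replicate 1.

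The remaining largest increases were C1QTNF1, a secreted adipokine-like protein (log2 difference 5.38), RTP3, a receptor transporter protein (5.33), PHYHD1 (4.43), C17orf96 (4.22), COL3A1 (3.27), TMEM132E (3.22) and CRYAB, a small heat shock protein (3.20). CRYAB lies in the chromosome 11 stretch and TMEM132E in the chromosome 17 stretch described below. By the condition for this ranking, the KO libraries of each lay wholly above the WT libraries. The edgeR adjusted p of these genes lay between 2.4e-06 and 0.0011. COL3A1, the fibrillar type III collagen chain, was also the most abundant of the genes that rose. It had 34, 38.5 and 37.9 CPM in WT and 362, 353 and 349.9 CPM in KO libraries, so the libraries of each genotype lay close together and the genotypes far apart (log2 difference 3.27 ± 0.08, edgeR adjusted p = 2.4e-06).

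**Figure D2:**
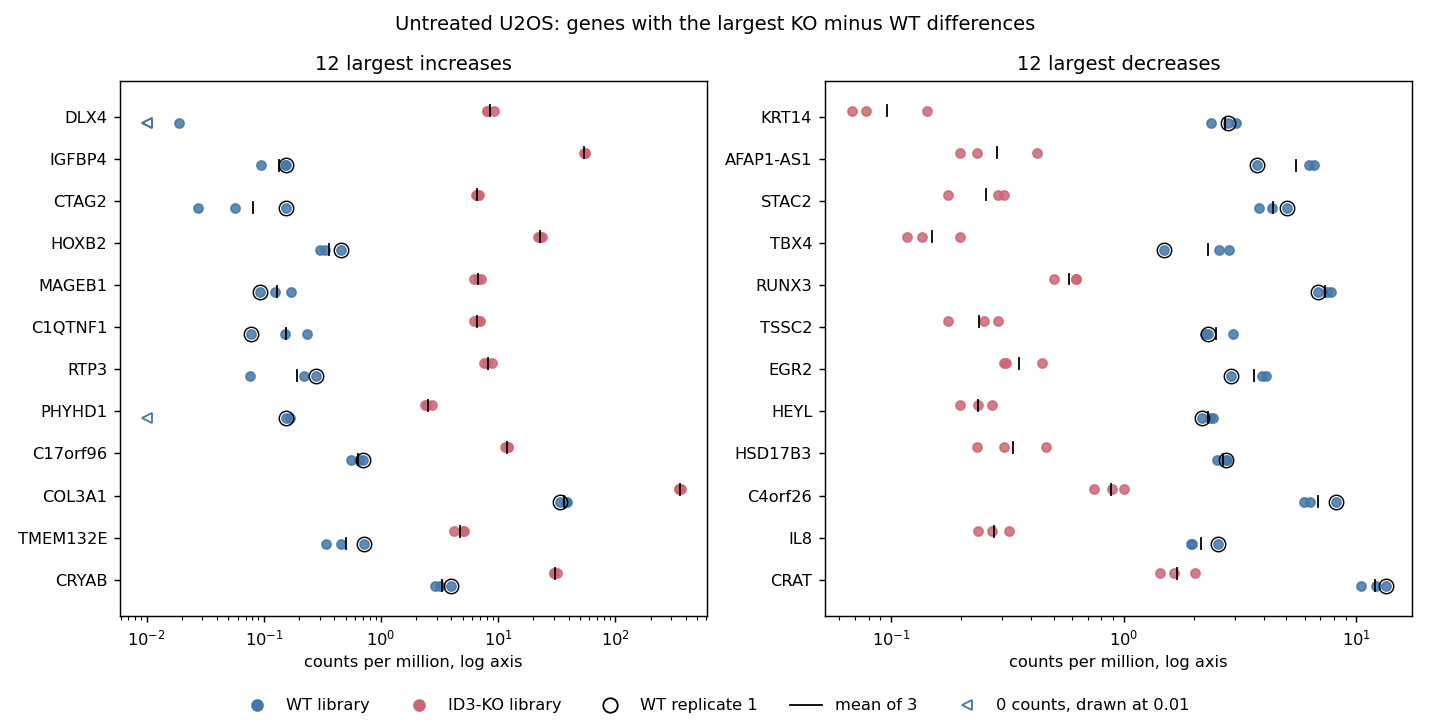
CPM on a log axis in each of the 6 libraries for the 12 genes with the largest increases (left) and the 12 with the largest decreases (right). They were taken from genes of at least 1 CPM that were called with and without WT replicate 1. Further conditions were that the WT and KO libraries do not overlap and that the gene symbol is not a clone name. XIST and genes of chromosome Y were also left out. Blue points are WT and red points are ID3-KO libraries, black rings mark WT replicate 1, bars are means, and open triangles are libraries with 0 counts. COL3A1 goes from 34 to 38.5 CPM in WT to 349.9 to 362 CPM in KO cells.

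Among abundant genes, KRT81, a hair keratin, had 64, 39.4 and 39 CPM in WT and 288, 272 and 275 CPM in KO libraries (log2 difference 2.55 ± 0.20, edgeR adjusted p = 0.00026). TINAGL1, a basement membrane protein, had 62.6, 55 and 54.3 CPM in WT and 191, 185 and 187 CPM in KO libraries (log2 difference 1.71, adjusted p = 4e-05). The mucin-like membrane protein gene TMEM123 and REXO2, an exonuclease for short RNAs, rose by 1.56 and 1.42 (adjusted p = 3.9e-05 and 0.00039). Both lie in the stretch of chromosome 11 described below, where nearly all genes were higher in KO cells.

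Under the same conditions, the largest decrease was that of KRT14, the type I keratin of basal epithelium (ENSG00000186847.5, chromosome 17, 39738531 to 39743173). It had 2.81, 3.04 and 2.38 CPM in WT and 0.0779, 0.0677 and 0.143 CPM in KO libraries, a log2 difference of -4.80 ± 0.27 (edgeR adjusted p = 6.8e-05). AFAP1-AS1, a long antisense RNA, followed with -4.25. STAC2, a regulator of voltage-gated calcium channels, had -4.08, and TBX4, a T-box factor of hindlimb development, -3.92. By the condition for this ranking, the 3 KO libraries of each lay under the 3 WT libraries. Counts of either strand do not separate AFAP1-AS1 from a gene it overlaps, and with reverse-strand counts AFAP1-AS1 stood at -4.97.

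RUNX3, a Runt-domain transcription factor related to RUNX2, had 6.86, 7.78 and 7.46 CPM in WT and 0.623, 0.626 and 0.502 CPM in KO libraries. Every KO library was far under every WT level, with a log2 difference of -3.65 ± 0.14 (edgeR adjusted p = 1.4e-05). The other genes among the 12 largest decreases were TSSC2 (log2 difference -3.37), EGR2 (-3.35), HEYL (-3.29), HSD17B3, a testosterone-forming dehydrogenase (-2.99), C4orf26 (-2.96), the chemokine gene IL8 (-2.95) and CRAT, carnitine acetyltransferase (-2.82). Their edgeR adjusted p lay between 6.8e-05 and 0.00027.

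Genes for the extracellular matrix and its turnover moved in both directions. Of 32 tested collagen genes, 8 fell (25%, against 2.84% of all tested genes) and 1, COL3A1, rose (3.12%, against 1.42%), with a median log2 difference of -0.42 over the list. The falls included COL9A2, a cartilage collagen, with 73.9, 67.3 and 65 CPM in WT and 21.1, 20.4 and 20.6 CPM in KO libraries (log2 difference -1.73 ± 0.08, edgeR adjusted p = 3.4e-05). They also included COL22A1 (-1.22, adjusted p = 6.2e-05), the network-forming COL8A1 (-1.07, adjusted p = 0.00046) and COL1A2 (-2.82, adjusted p = 0.0013), whose WT level was only 0.888 to 1.09 CPM. Without WT replicate 1 the same counts of 8 and 1 were obtained.

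Of 31 tested integrin and laminin genes, 2 rose (6.45%, against 1.42% of all tested genes) and 5 fell (16.1%, against 2.84%). LAMA4, a laminin chain of vascular basement membranes, had 2.49, 3.62 and 3.52 CPM in WT and 16, 15.4 and 15.3 CPM in KO libraries (log2 difference 2.27, edgeR adjusted p = 0.00011). ITGB2, the beta chain of leukocyte integrins, rose by 1.38 (adjusted p = 0.00011). The epithelial laminin chain LAMA3 fell, with a log2 difference of -2.01 (adjusted p = 0.0039). The median of the whole list was -0.02, and the other 24 members were not called.

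Of 33 tested matrix proteases and their inhibitors, 2 rose (6.06%, against 1.42% of all tested genes) and 5 fell (15.2%, against 2.84%). MMP9, a gelatinase, had 23.5, 23.3 and 21.5 CPM in WT and 7.32, 6.52 and 6.97 CPM in KO libraries (log2 difference -1.72, edgeR adjusted p = 4.2e-05). TIMP1, an inhibitor of these proteases, went from 376 to 548 CPM in WT to 178 to 180.3 CPM in KO libraries (log2 difference -1.30, adjusted p = 0.0012). MMP3, stromelysin, and MMP7, matrilysin, lie near each other on chromosome 11 and moved in opposite directions, by 1.52 and -2.06 (adjusted p = 0.0022 and 0.0035). TIMP1 lies in the stretch of the X chromosome, and MMP3 and MMP7 in the stretch of chromosome 11, that are described below.

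Other abundant secreted and matrix genes were lower in KO cells. THBS1, thrombospondin, an adhesive glycoprotein that activates latent TGF-beta, had 381, 658 and 630.2 CPM in WT and 193, 188 and 194 CPM in KO libraries (log2 difference -1.54 ± 0.19, edgeR adjusted p = 0.0022). IGFBP5, an insulin-like growth factor binding protein abundant in bone, had 179.7, 276 and 263 CPM in WT and 52.2, 52.6 and 52.5 CPM in KO libraries (-2.19 ± 0.16, adjusted p = 0.00021). In both genes WT replicate 1 was the lowest WT library, and the differences were -1.75 and -2.36 without it. IGFBP4 and IGFBP5 thus moved in opposite directions. The long noncoding RNA MIAT fell as well (-1.56, adjusted p = 0.0028).

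Most called cytokine and chemokine genes were lower. Of 28 tested, 7 fell (25%, against 2.84% of all tested genes) and 1 rose (3.57%, against 1.42%), with a median of -0.52. CXCL14, a chemokine for monocytes and dendritic cells, had 48.6, 63.6 and 59.6 CPM in WT and 9.99, 10.5 and 11.3 CPM in KO libraries (log2 difference -2.43 ± 0.12, edgeR adjusted p = 4.2e-05). CX3CL1, the membrane-bound fractalkine, had 25.5, 21.7 and 20.1 CPM in WT and 4.63, 4.54 and 5.16 CPM in KO libraries (-2.23 ± 0.12, adjusted p = 5e-05). IL8, which attracts neutrophils, and CCL2, which attracts monocytes, fell by 2.95 and 1.32 (adjusted p = 0.00021 and 0.00042). In each of these genes the 3 KO libraries were under all WT libraries, and CCL2 lies in the chromosome 17 stretch described below.

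AP-1 and immediate early genes, which respond to growth factors and stress, showed decreases. Of 24 tested, 4 fell (16.7%, against 2.84% of all tested genes) and 0 rose by edgeR, DESeq2 or limma. At edgeR's unadjusted p under 0.05 there were 11 lower and 1 higher (median -0.35). FOS had 58.5, 50 and 43.4 CPM in WT and 21.2, 15.8 and 17 CPM in KO libraries, and JUNB had 63.5, 43.8 and 41.5 CPM in WT and 19.5, 16 and 17.1 CPM in KO libraries. Their log2 differences were -1.49 and -1.5 (adjusted p = 0.00075 and 0.0015). EGR2, a zinc finger factor of the same response, fell by 3.35 and FOSB by 1.5 (adjusted p = 0.00016 and 0.0019).

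Of 34 tested interferon-stimulated genes, 4 fell (11.8%, against 2.84% of all tested genes) and 1 rose (2.94%, against 1.42%), with a median of -0.04. OASL, an antiviral oligoadenylate synthetase-like protein, had 5.49, 5.24 and 5.18 CPM in WT and 0.759, 0.796 and 0.86 CPM in KO libraries (log2 difference -2.72, edgeR adjusted p = 3.4e-05), and MX2 and IFI44 fell by 1.81 and 1.01 (adjusted p = 0.016 and 0.0013). BST2, or tetherin, rose by 2.29 (adjusted p = 0.00046). In antigen presentation 0 of 19 tested genes were called by edgeR or DESeq2 and 1 by limma, and 5 had an unadjusted p under 0.05. HLA-DMB was the 1 call without WT replicate 1 (-1.11). The smallest adjusted p of the list was that of TAPBP, the peptide-loading protein tapasin, at 0.066.

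**Figure D3:**
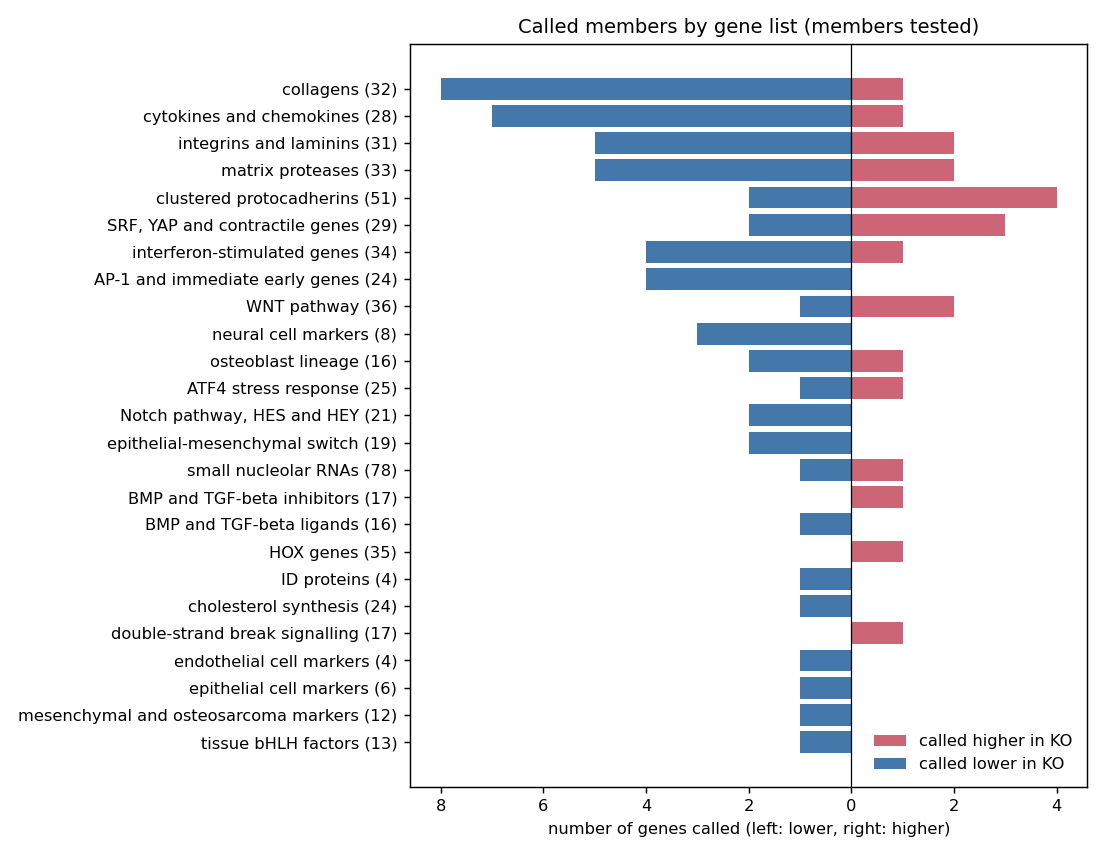
Number of called genes in each gene list with at least 1 called member, to the left for genes lower and to the right for genes higher in ID3-KO cells, with the number of members tested in parentheses. Collagens (8 lower, 1 higher of 32) and cytokines and chemokines (7 lower, 1 higher of 28) hold the most decreases, and clustered protocadherins (4 higher, 2 lower of 51) the most increases. Of all tested genes, 1.42% were called higher and 2.84% lower.

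Developmental signalling pathways each held a few called members. In the Notch pathway, 2 of 21 tested genes fell (9.52%, against 2.84% of all tested genes) and 0 rose, by edgeR and by the other tools. At edgeR's unadjusted p under 0.05, 7 were lower and 3 higher. The falls were HEYL, a Notch target repressor, with 2.18, 2.41 and 2.34 CPM in WT and 0.273, 0.237 and 0.197 CPM in KO libraries (log2 difference -3.29, edgeR adjusted p = 7.2e-05), and the ligand DLL1 (-1.20, adjusted p = 0.0013). In the WNT pathway, 2 of 36 rose (5.56%, against 1.42% of all tested genes) and 1 fell (2.78%, next to 2.84%). The receptor FZD10 (1.79, edgeR adjusted p = 0.0026) and the co-receptor LRP5 (1.03, adjusted p = 0.00036, not called without WT replicate 1) rose. The nuclear effector TCF7 fell (-2.52, adjusted p = 0.00055).

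In the BMP and TGF-beta pathways, whose signals induce ID genes, 1 of 16 ligands fell (6.25%, against 2.84% of all tested genes). It was INHBE, an inhibin beta subunit (log2 difference -1.68, edgeR adjusted p = 0.00014). None of 18 receptors and SMADs was called by edgeR, DESeq2 or limma, and 3 had an unadjusted p under 0.05. TGFBR2 had the smallest adjusted p there, 0.072, at a log2 difference of 0.40.

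Genes of contractile cells and of the SRF and YAP programmes split. Of 29, 3 were higher (10.3%, against 1.42% of all tested genes) and 2 lower (6.9%, against 2.84%). LMCD1, a LIM-domain regulator, had 90.3, 91.2 and 85.7 CPM in WT and 16.4, 14.9 and 16.7 CPM in KO libraries (log2 difference -2.48 ± 0.08, edgeR adjusted p = 7.7e-06). MYOCD, the SRF coactivator myocardin, fell by 1.56 (adjusted p = 0.00095). The cardiac troponin genes TNNC1 and TNNT2 rose by 2.26 and 1.59 (adjusted p = 0.00046 and 0.00022), and the third increase was YAP1 (1.37) in the chromosome 11 stretch.

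The osteoblast lineage list had 16 tested members, with a median of -0.40. ALPL, the alkaline phosphatase of mineralizing cells, fell by 1.73 (edgeR adjusted p = 0.0016) and COL1A2 fell as above, RUNX2 stood at -0.81 (adjusted p = 0.0024), under the fold threshold, while POSTN, periostin, rose by 2.24 from very low levels (adjusted p = 0.012). In the epithelial-mesenchymal switch list, 2 of 19 fell (10.5%, against 2.84% of all tested genes) and 0 rose by edgeR, DESeq2 and limma alike. At edgeR's unadjusted p under 0.05, 5 were lower and 4 higher. SNAI2, or Slug, a repressor of E-cadherin, had 18.5, 18.3 and 18.2 CPM in WT and 6.89, 7.26 and 7.24 CPM in KO libraries (log2 difference -1.36 ± 0.07, adjusted p = 5.7e-05), and the claudin CLDN7 was at 0.546 CPM or less in every library.

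Cell surface protocadherins of the chromosome 5 clusters, which give neurons their identity, had 51 tested members. Of these, 4 rose (7.84%, against 1.42% of all tested genes) and 2 fell (3.92%, near the 2.84% of all tested genes). PCDHGB4 had 0.312, 0.152 and 0.171 CPM in WT and 2, 1.73 and 1.43 CPM in KO libraries (log2 difference 3.01, edgeR adjusted p = 0.00074), PCDHA6 and PCDHB2 rose by 1.19 and 1.13 (adjusted p = 0.00016 and 0.00027), and PCDHB3 fell by 1.09 (adjusted p = 0.0012). Members of these clusters share 3' exons or are near copies of each other, so the assignment of reads between them is uncertain.

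None of 54 G2/M genes and none of 43 S phase genes was called by edgeR, DESeq2 or limma. Their medians were 0.07 and 0.19, with 10 and 19 genes higher and 3 and 0 lower at an unadjusted p under 0.05, and 3 and 5 higher at the adjusted p alone. The smallest adjusted p were those of TMPO (0.30, adjusted p = 0.03) and CDCA7 (0.41, adjusted p = 0.0088). A further list of 22 entries held cyclins, their kinases, CDC25 phosphatases and E2F and RB family genes, with RBL1 under 2 gene IDs. In it 0 were called by the 3 tools, and 8 had an unadjusted p under 0.05. Of these, 3 passed the adjusted p alone, namely CCND1, CCND2 and E2F2. CCND2, cyclin D2, had 162, 146 and 143 CPM in WT and 238, 241 and 246 CPM in KO libraries (log2 difference 0.69 ± 0.08, adjusted p = 0.0012). Of 6 CDK inhibitors 0 were called by the 3 tools and 1 had an unadjusted p under 0.05. It was CDKN1B, the CDK inhibitor p27, which had 40.6, 36.9 and 37.2 CPM in WT and 73.1, 72.9 and 69.1 CPM in KO libraries (0.91 ± 0.07, adjusted p = 3e-04). For both genes the genotypes do not overlap, and the difference stays under the fold threshold.

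None of 29 genes of homologous recombination and none of 18 of non-homologous end joining was called by edgeR, DESeq2 or limma. An unadjusted p under 0.05 was found for 12 and 8 of them (29.4% of all genes). Of the 12, 10 were higher and 2 lower, and of the 8, 3 were higher and 5 lower. At the edgeR adjusted p alone, 4 recombination genes were higher and 1 lower, and 2 end joining genes were higher and 3 lower. The list medians were 0.18 and -0.04 (0.09 and -0.03 without WT replicate 1). RECQL5, a DNA helicase, and POLM, a polymerase of end joining, had the smallest adjusted p, at -0.54 and -0.42 (adjusted p = 0.0026 and 0.0056). The largest increases were RAD51D at 0.71 and DCLRE1C at 0.82 (adjusted p = 0.0048 and 0.0064). In the double-strand break signalling list, 1 of 17 was called (5.88%, against 1.42% of all tested genes called higher), the kinase gene ATM. It had 15.8, 29.3 and 30.2 CPM in WT and 69.7, 66.4 and 66 CPM in KO libraries (log2 difference 1.43 ± 0.22, adjusted p = 0.0058, and 1.18 without WT replicate 1). ATM also lies in the stretch of chromosome 11 described below.

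Genes for the enzymes that add and remove histone acetyl groups were not called by edgeR, DESeq2 or limma. Of 16 histone deacetylases, 6 had an unadjusted p under 0.05, and 1 was higher and 3 were lower at the edgeR adjusted p alone, with HDAC5 at -0.53 (adjusted p = 0.0069). Of 13 histone acetyltransferases, 3 had an unadjusted p under 0.05, and KAT7 stood at 0.50 (adjusted p = 0.018). Among 25 tested p53 targets 0 were called by these tools, 7 had an unadjusted p under 0.05 and 2 were higher at the adjusted p alone, led by SESN2 (0.32, adjusted p = 0.026). In the cholesterol synthesis list 1 of 24 was called (4.17%, against 2.84% of all tested genes called lower). It was EBP (-1.04), which stood at -0.83 without WT replicate 1 and lies in the X chromosome stretch. At edgeR's unadjusted p under 0.05, 11 genes of this list were lower and 1 higher. At the adjusted p alone, 6 were lower and 0 higher. The list median was -0.21 (-0.16 without WT replicate 1). In the ATF4 stress list of 25 genes 1 rose and 1 fell, or 4% each, against 1.42% and 2.84% of all tested genes. FGF21 rose by 1.06 and DDIT4 fell by 1.07 (edgeR adjusted p = 0.0057 and 0.0021), and DDIT4 stood at -0.92 without WT replicate 1.

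Of 85 cytoplasmic ribosomal protein genes, 31 replication-dependent histone genes and 13 mRNAs of the mitochondrial genome, none was called by edgeR, DESeq2 or limma. An unadjusted p under 0.05 was found for 11, 9 and 5 of them, and 2, 1 and 1 passed the adjusted p alone. RPL38, HIST1H1C and MT-ND1 had the smallest values, at -0.63, 0.78 and 0.47 (adjusted p = 0.027, 0.0066 and 0.01). The ribosomal protein median was -0.19 with all 6 libraries and -0.02 without WT replicate 1. Among 78 small nucleolar RNAs, 1 rose and 1 fell, or 1.28% each, which is under the shares of all tested genes (1.42% and 2.84%). Of the marker lists for other cell types, KRT14 was lower among 6 epithelial genes, VWF among 4 endothelial genes, and SOX2, RBFOX3 and SYP among 8 neural genes, with 0 of 5 blood genes called by edgeR or DESeq2 and 1 by limma, and 2 at an unadjusted p under 0.05. SYP lies in the X chromosome stretch. The summed level of the epithelial list was 21.2 to 24.9 CPM in WT and 18.6 to 20.9 CPM in KO libraries, and that of the blood list 1.86 to 2.65 and 1.72 to 1.96 CPM. For the endothelial list it was 13.9 to 17.3 and 12.5 to 14.2 CPM, and for the neural list 376 to 408 and 347 to 356 CPM. The part of other cell types in the results was not tested.

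Called genes were not spread evenly along the genome. The genome was divided into windows of 5 megabases (hg19) after the values had been seen, so what follows is a description without a test. Of 478 windows with at least 10 genes of 1 CPM or more, 14 had a median log2 difference of at least 0.5 in size, while the middle part of the distribution, from the 25th to the 75th percentile, ran from -0.06 to 0.07. These 14 windows held 2.2% of the 15346 genes of at least 1 CPM, yet 27.1% of the called-higher and 9.87% of the called-lower genes of that level. Outside them 233 higher and 544 lower genes remained of the 292 and 586.

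On chromosome 11, in the 3 windows that start at 100, 105 and 110 megabases, 57 of 60 genes of at least 1 CPM were above 0 and 36 were called higher. Relative to the WT mean, the median log2 level of these genes was 1.02, 1.10 and 1.05 in the 3 KO libraries and between -0.11 and 0.05 in the WT libraries. The KO libraries were alike and clear of the WT libraries, WT replicate 1 included. The median difference was 1.15 (1.08 without WT replicate 1), and the next window toward the end of the chromosome had a median of 0.04. On the other side the level did not return to 0 at once, since the 5 windows between 70 and 95 megabases had medians of 0.27 to 0.48, with 1 gene called higher among them. The stretch holds ATM, YAP1, the apoptosis inhibitor BIRC2, the histone gene coactivator NPAT, the ubiquitin ligase scaffold CUL5, the neural adhesion gene NCAM1, CRYAB, TMEM123 and REXO2.

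On the X chromosome, between 40 and 50 megabases, 70 of 72 genes were below 0 and 23 were called lower, with a median of -0.74 (-0.83 without WT replicate 1). The 3 KO libraries stood at -0.68, -0.62 and -0.64 relative to the WT mean, and the WT libraries between -0.02 and 0. Called genes there include the monoamine oxidases MAOA and MAOB (-1.24 and -2.35), the kinase ARAF (-1.12), the ETS factor ELK1 (-1.07), the WNT-processing enzyme PORCN (-1.52), TIMP1, EBP and SYP. The window from 50 to 55 megabases had a median of -0.06, and that from 35 to 40 megabases, on the other side, -0.32 (-0.51 without WT replicate 1), with 3 of 11 genes called lower.

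A longer stretch on chromosome 10, from 10 to 30 megabases, had 71 of 76 genes above 0 with a median of 0.61, under the fold threshold, so that 5 genes were called higher there. On chromosome 17, from 30 to 35 megabases, 41 of 43 genes were above 0 with a median of 0.70, and TMEM132E, which rose, and CCL2, which fell, lie within it. The same windows stood out in the other libraries of the series. In untreated AID-DIvA cells and in mocetinostat-treated U2OS cells, the medians were 1.36 and 1.2 on chromosome 11, -0.83 and -0.77 on the X chromosome, 0.65 and 0.67 on chromosome 10, and 0.58 and 0.64 on chromosome 17. All 14 windows had the same sign in all 3 comparisons. The number of DNA copies of these stretches was not measured here, and the genotype and the KO line cannot be told apart in them. Outside the stretch from 30 to 35 megabases, chromosome 17 also holds DLX4, IGFBP4, HOXB2, C1QTNF1 and C17orf96 of the largest increases. It holds KRT14, STAC2 and TBX4 of the largest decreases. Of the 15346 genes of at least 1 CPM, 944 lie on chromosome 17, with 25 of 181 called higher and 26 of 314 called lower. The cause was not tested.

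**Figure D4:**
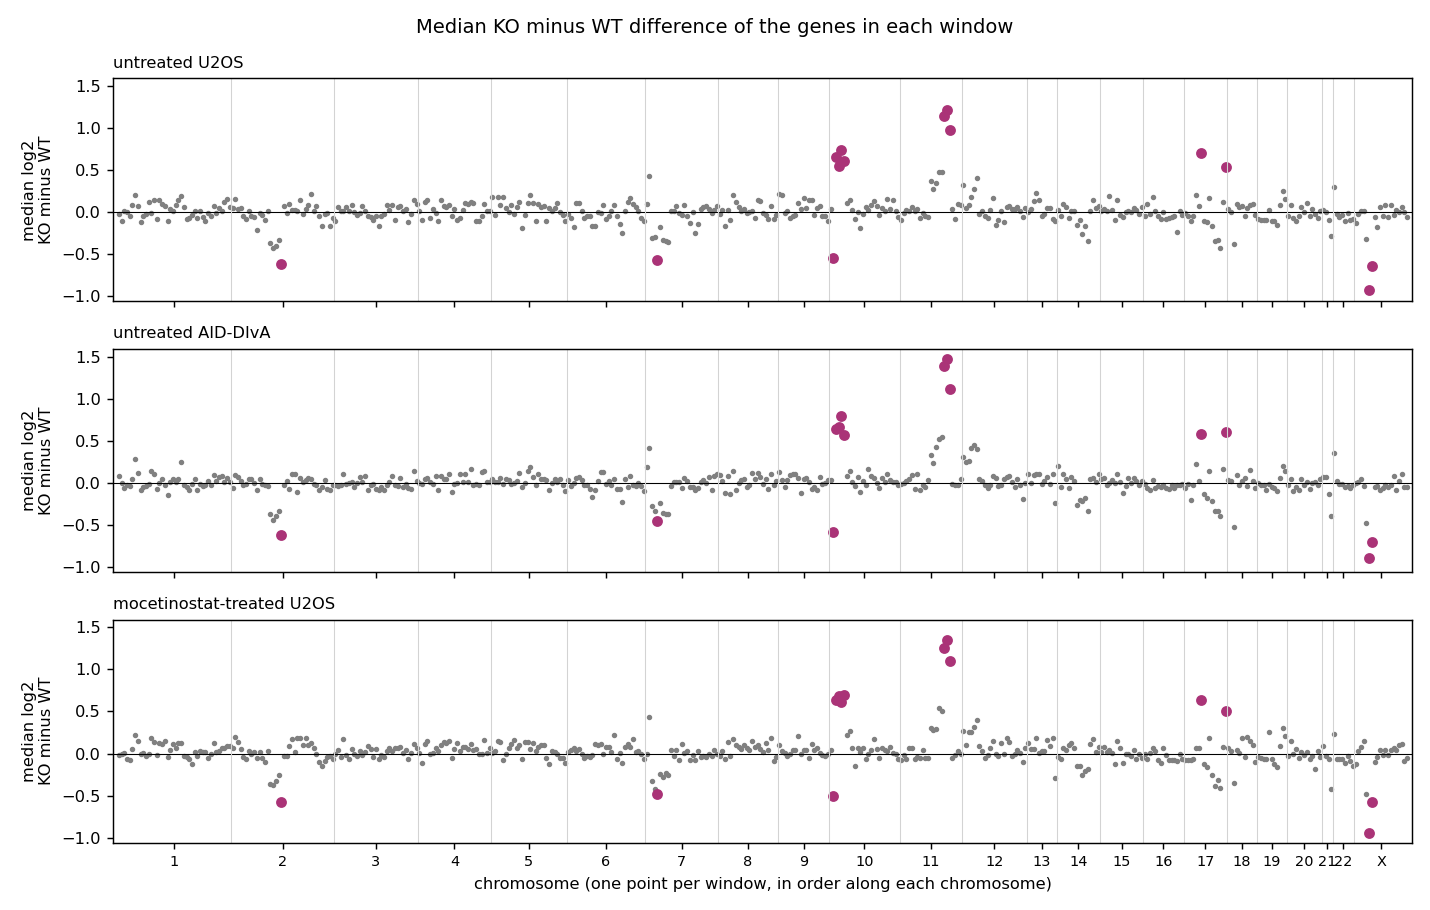
Median log2 KO minus WT difference (vertical axis) of the genes in each of 478 windows of 5 megabases, ordered by chromosome (horizontal axis), in untreated U2OS, untreated AID-DIvA and mocetinostat-treated U2OS cells. Larger purple points are the 14 windows at 0.5 or beyond in untreated U2OS cells, from -0.93 on the X chromosome to 1.21 on chromosome 11, and they keep their sign in the other 2 panels.

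The other libraries of the series, which share none with the comparison above, allowed the same genotype difference to be read again. Whether the U2OS and AID-DIvA cells were knocked out separately is not given in the sources used here. Agreement between the comparisons therefore does not tell the genotype from the KO line. In untreated AID-DIvA cells edgeR called 465 higher and 471 lower genes of 20441 (2.27% and 2.3%). The titles of these libraries read untreated, while their treatment field reads mocetinostat-treated, and the titles were followed. Of the genes called higher in untreated U2OS cells and tested in both, 192 of 285 (67.4%) were called higher in AID-DIvA cells too, which is 44.2% of the 434 on the AID-DIvA list that were tested in both. Of those called lower, 271 of 534 (50.7%) were called lower too, or 63.6% of 426, and 2 were called in the opposite direction. The log2 differences of the 2 comparisons correlated with r = 0.783 (Pearson) and rho = 0.645 (Spearman) over 19998 genes. This is a description, since genes do not count as independent replicates.

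In mocetinostat-treated U2OS cells edgeR called 286 higher and 475 lower genes of 21800 (1.31% and 2.18%). Of the genes called in untreated U2OS cells, 128 of 282 higher (45.4%) and 207 of 557 lower (37.2%) were called the same way, or 57.4% and 61.1% of the treated lists, and 0 in the opposite way. IGFBP4 was higher in KO cells by 9.31 in AID-DIvA and 7.96 in treated U2OS cells, HOXB2 by 6.62 and 4.44, and COL3A1 by 3.70 and 2.57. RUNX3 was at -3.61 and -2.78, HEYL at -3.68 and -3.54, and AFAP1-AS1 at -4.32 and -4.25. All of these passed both thresholds in AID-DIvA and in treated U2OS cells, with edgeR adjusted p of 5.8e-15 or smaller for the increases and of 7e-10 or smaller for the decreases.

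ID3 itself had a log2 difference of -0.56 in AID-DIvA and -1.21 in treated U2OS cells (edgeR adjusted p = 8.4e-06 and 4.9e-07). Some genes that fell in untreated U2OS cells had values nearer 0 elsewhere. CXCL14 stood at -0.94 in AID-DIvA and at -0.01 in treated U2OS cells, IL8 at -0.81 and -0.04, and KRT14 at -2.53 and -1.21. For AID-DIvA cells the difference was tested as described next, and for treated cells it was not tested. EGR2, FOS and FOSB stood at -1.65, -1.16 and -1.40 in AID-DIvA cells, where they did not pass the test (edgeR adjusted p = 0.10, 0.25 and 0.39), and at -2.09, -1.57 and -1.39 in treated U2OS cells, where they did (adjusted p = 1.3e-12, 0.006 and 8.9e-10).

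The difference between untreated U2OS and untreated AID-DIvA cells in the KO minus WT value was tested directly over their 12 libraries. It was above 0 for 65 and below 0 for 150 of 21489 genes (0.302% and 0.698%, edgeR adjusted p under 0.05). Of the 878 genes called in untreated U2OS cells, 70 (7.97%) were among these, 53 of them genes that fell, and for 50 of the 53 the fall was larger in U2OS cells. These genes were chosen by their fall in U2OS cells, which favours larger values there, so this count is a description. The count of 215 genes depends on single libraries. Without WT replicate 1 it was 1663, the 215 included, and 188 (21.4%) of the 878 were among them. It was 171 and 186 without WT replicates 3 and 2, 89 to 98 without a U2OS KO library, 95 to 146 without an AID-DIvA library, and 69 with the replicate number as a block.

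Genes that fell more in U2OS cells include VWA5B2 (-1.97 in U2OS against -0.24 in AID-DIvA cells, difference -1.72 ± 0.13, edgeR adjusted p = 9.7e-05), LMCD1 (-2.48 against -1.21, adjusted p of the difference 0.00019) and the lens crystallin gene CRYGS (-2.42 against -0.40, adjusted p 0.00046). CCL2 was at -1.32 in U2OS and at 0.32 in AID-DIvA cells (difference -1.62, adjusted p = 0.00026). On the other side, CAV1, the main protein of caveolae, was at -0.20 in U2OS and -1.16 in AID-DIvA cells (difference 0.97, adjusted p = 0.00032), and the ubiquitin ligase gene MARCH4 at 0.53 and -0.61 (1.16, adjusted p = 2.4e-05). Without WT replicate 1 these 6 differences lay between -2.10 and 1.09, with the same signs and smaller adjusted p.

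**Figure D5:**
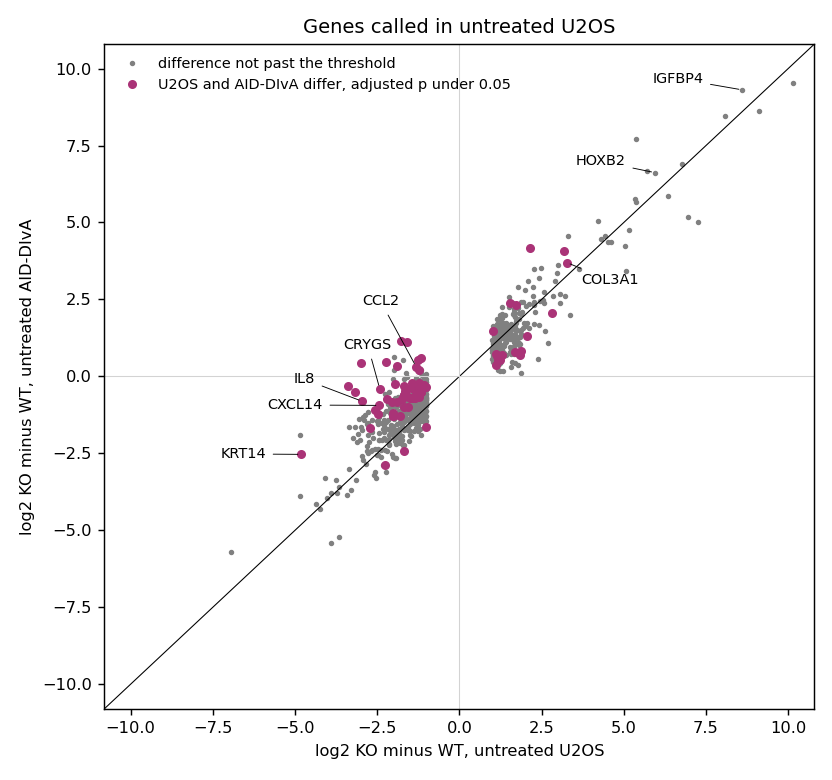
Log2 KO minus WT difference in untreated U2OS cells (horizontal axis) against that in untreated AID-DIvA cells (vertical axis) for genes called in untreated U2OS cells and tested in both, with the line of equal values in black. Purple points are genes whose difference between the 2 lines passed an edgeR adjusted p of 0.05, and most of these lie among the decreases, above the line.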

How the data were processed

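Strand-specific total RNA libraries were sequenced from both ends, aligned by the authors to hg19/GRCh37 with STAR and counted per gene with featureCounts, without versions in the sources used here. The deposited counts are raw, from reads of either strand. The methods name annotation v.29 lift 37, but the version suffixes of the gene IDs in the files are older, and names and coordinates are those of the files. The 18 other libraries entered only the comparisons named. Of these, the 6 AID-DIvA libraries taken after mocetinostat and recovery were not used. Groups were taken from the titles, since the treatment field of the AID-DIvA libraries goes against them. The methods call the replicates biological, without saying that they were separate cultures, so p-values measure the spread between these libraries, which may be partly technical.

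Here counts were scaled by TMM, filtered with filterByExpr and tested with edgeR 4.0.16 (quasi-likelihood, robust) in R 4.3.3, with Benjamini-Hochberg adjustment over all genes tested, in fits of the groups compared. CPM use TMM library sizes, and spreads on the log2 scale add 0.5 CPM. Alternatives were DESeq2 1.42.0, limma 3.58.1 (voom with quality weights), other filters, scalings, thresholds and strand, an offset for exonic length, and each library left out. For untreated U2OS cells, the edgeR fit, both scalings, DESeq2, limma, the length offset and the replicate block were tested on simulated counts. For the difference between lines, the same fits were tested except limma and the length offset. The simulated counts did not carry the length bias of WT replicate 1. The other alternatives, and the fits of AID-DIvA and treated U2OS cells alone, were not tested in this way. Named genes were the ID and E protein genes, the 12 largest changes and 5 most abundant genes each way (called with and without WT replicate 1, at least 1 CPM, no overlap), up to 4 called members per list, 3 genes that WT replicate 1 adds and 3 that it removes, and 5 each way for the difference between lines. The genes of the 5 megabase windows, the marker counts and a few further list members were named after their values were seen. The lists and rules were chosen with earlier results of these data known. A few named genes are not reported here.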

Additional observations from a re-analysis of the deposited data

Results flagged for a closer look

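The KO minus WT difference of 23 named genes differed between untreated U2OS and untreated AID-DIvA cells (edgeR quasi-likelihood test of the difference over 12 libraries, Benjamini-Hochberg adjusted p under 0.05). Values below are the log2 difference in U2OS cells minus that in AID-DIvA cells. They rest on 3 libraries per genotype and line. Over all 21489 genes tested, 0.302% were above 0 and 0.698% below 0 at this threshold. Some of the 23 were named for this same difference, so their number is a description. All 23 kept their sign and their side of the threshold without WT replicate 1. All 215 genes past the threshold stayed past it in that fit, so it does not set the 23 apart. The 215 became 89 to 98 without a U2OS KO library and 69 with the replicate number as a block.

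Chemokine genes and other genes with larger falls in U2OS cells had IL8 at -2.13, CCL2 at -1.62 and CXCL14 at -1.48. Matrix and secreted products with negative values were IGFBP5 (-1.45), COL9A2 (-0.98) and COL22A1 (-0.55). Transcriptional and structural genes were KRT14 (-2.26), CRYGS (-2.01), VWA5B2 (-1.72), LMCD1 (-1.25), BHLHE41 (-1.07) and OASL (-1.02). All of these fell in U2OS cells.

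Increases that were smaller in U2OS than in AID-DIvA cells were those of CRYAB (-0.87), TINAGL1 (-0.60) and COL3A1 (-0.41). PMEPA1, a TGF-beta-induced membrane protein, was at -0.40 in U2OS and 0.40 in AID-DIvA cells (difference -0.79).

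Positive values were found for DIO2, the deiodinase that activates thyroid hormone (1.30), MARCH4 (1.16), CAV1 (0.97), CCBE1, a matrix factor of lymphatic growth (0.85), CPA4, a carboxypeptidase (0.78), IFI44 (0.66) and CDCA7 (0.38). CPA4 and CAV1 were lower in KO than in WT AID-DIvA cells (-0.73 and -1.16), with 0.03 and -0.20 in U2OS cells, and CCBE1 was higher in U2OS cells (0.87, against 0.03).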

How the results depend on the processing

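The counts of 292 higher and 586 lower genes stayed within 1.5 times under DESeq2, both scalings, both filters, the fit of all 12 U2OS libraries, reverse-strand counts, the length offset, limma with quality weights (in which WT replicate 1 had a weight of 0.071) and without the genes of the 14 windows, the last chosen after seeing the data. Without a fold threshold they were 1352 and 1780, and against a fold of 1.5 by glmTreat the lower count was 333. With 1 library left out they ranged from 193 to 398 and from 370 to 782. The counts for AID-DIvA and treated U2OS cells ranged from 945 to 1048 and from 759 to 836 with 1 library left out. The 215 genes that differed between the lines became 474 under DESeq2 and 89 to 1663 with 1 library left out, the highest without WT replicate 1. The cause was not tested.

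Same-numbered replicates did not deviate together (r = 0.027, -0.042 and 0.046), so the numbers were not taken to pair the samples. With the replicate number as a block the counts were 256 and 488, those of AID-DIvA and treated U2OS cells 956 and 779, and that of genes that differ between the lines 69. Of 87 called genes named here, 70 kept their direction and side of the thresholds in every alternative and 17 lost the call in at least 1. TCF3 (-0.02 with all 6 libraries) turned to 0.12 without WT replicate 1 and to 0.11 in limma, with -0.09 as its lowest value with 1 library left out, and TCF4 (-0.06) to 0.03 and 0.04 without WT replicates 2 and 3, with -0.24 as its lowest. Of 57820 genes in the files, 20621 had enough counts to be tested, and the others were not tested at this depth.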
